A study of Mus musculus with 6 samples.

Results

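The genes described here were 33 genes of ribosome biogenesis and the Myc network, chosen by name with earlier results of these data known. They were measured in carotid arteries of SMC-IRF9-TG and NTG mice collected 14 days after wire injury. Each member was measured by at least 1 probe set that names it and no other gene, so that all 33 were found among 18193 named genes, with 67 of the 45037 probe sets tested. Where a gene had several probe sets, the one with the highest mean over the 6 arrays was used. The others are given beside it for some genes, and all are drawn in the plot of differences by probe set. The NTG group were non-transgenic controls, and the IRF9 TG group carried mouse Irf9 cDNA under the SM22α promoter, which is active in smooth muscle. The labels give the strain of both groups as C57BL/6 and the study's methods as C57BL/6J, all arteries were wire-injured, and the mice were males of 10 to 12 weeks by the study's methods. Each group held 3 pools of 3 to 5 vessels, and each pool gave 400 ng of total RNA for 1 Affymetrix array. The study phenotyped mainly the transgenic line with the highest IRF9 level, and the labels do not say which line or which animals were pooled, so that the p-values measure only the spread between these pools.

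Ribosomes are assembled in the nucleolus, where RNA polymerase I transcribes the ribosomal RNA precursor and small nucleolar ribonucleoproteins (snoRNPs), nucleases, helicases and GTPases modify, cleave and fold it into the small and large subunits. Myc, a transcription factor that binds E-box DNA as a dimer with Max, is known to activate many of the genes involved, and proteins of the Mxd family compete with it for Max. Growing and dividing cells, among them smooth muscle cells after arterial injury, raise ribosome production.

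Every value is a log2 level from the authors' RMA, and every difference is the SMC-IRF9-TG mean less the NTG mean. The groups were compared with limma across all 45037 probe sets with Benjamini-Hochberg adjustment, and a gene is called where the adjusted p was under 0.05. Irf9 itself read 4.75 to 5.43 in NTG and 5.41 to 5.58 in SMC-IRF9-TG pools (difference 0.30, adjusted p = 0.436 from limma), and where its probe set lies relative to the transgene is not known here. The smooth muscle markers Acta2 and Tagln were at 13.42 and 11.37 in NTG, so the labelled tissue carried its defining markers. NTG pool 2 had lost the most 5′ signal, with the Actb control 7.09 log2 units higher at its 3′ than at its 5′ end against 1.56 to 3.04 in the other pools. The 18 hybridization control probe sets averaged 10.65 to 12.40 in NTG and 8.88 to 9.59 in SMC-IRF9-TG pools without overlap, so that whatever set these controls apart and the genotype cannot be told apart. The 24 poly-A control probe sets were lowest in the SMC-IRF9-TG pools 1 (mean 5.03) and 2 (4.55), with means of 7.53 to 11.75 in the other pools. Xist, the RNA of the inactive X chromosome, was high in NTG pools 1 and 2 (9.94 and 9.50) and 2.94 to 4.08 in the others, which goes against an all-male series.

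Of the 33 genes, Myc rose, Nat10 fell, and 31 did not pass the test. Both Myc and Nat10 are in the study's own list of genes related to the deacetylase SIRT1, drawn from these arrays. These calls are therefore not independent of that list. Over all named genes taken the same way, 3.11% were called higher and 0.511% lower, so that 1 higher call among 33 was a share near the background. At an unadjusted p under 0.05, limma gave 5 members higher and 3 lower, against 14.9% and 9.81% of all named genes. The differences of the 33 genes ran from -1.70 to 1.71 with a median of 0.23, beside a median of -0.05 over all named genes. Of the 33 differences, 23 were above 0 and 10 below, beside 46.3% above 0 among all named genes. The median depended on the scaling of the arrays. It was -0.03 after quantile normalization, beside -0.05 for all named genes. Of the 33 members 15 then lay above 0, beside 44.6% of all named genes. A bulk array cannot separate fewer cells of a type from less RNA per cell, and this holds for every value given here.

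**Figure D1:**
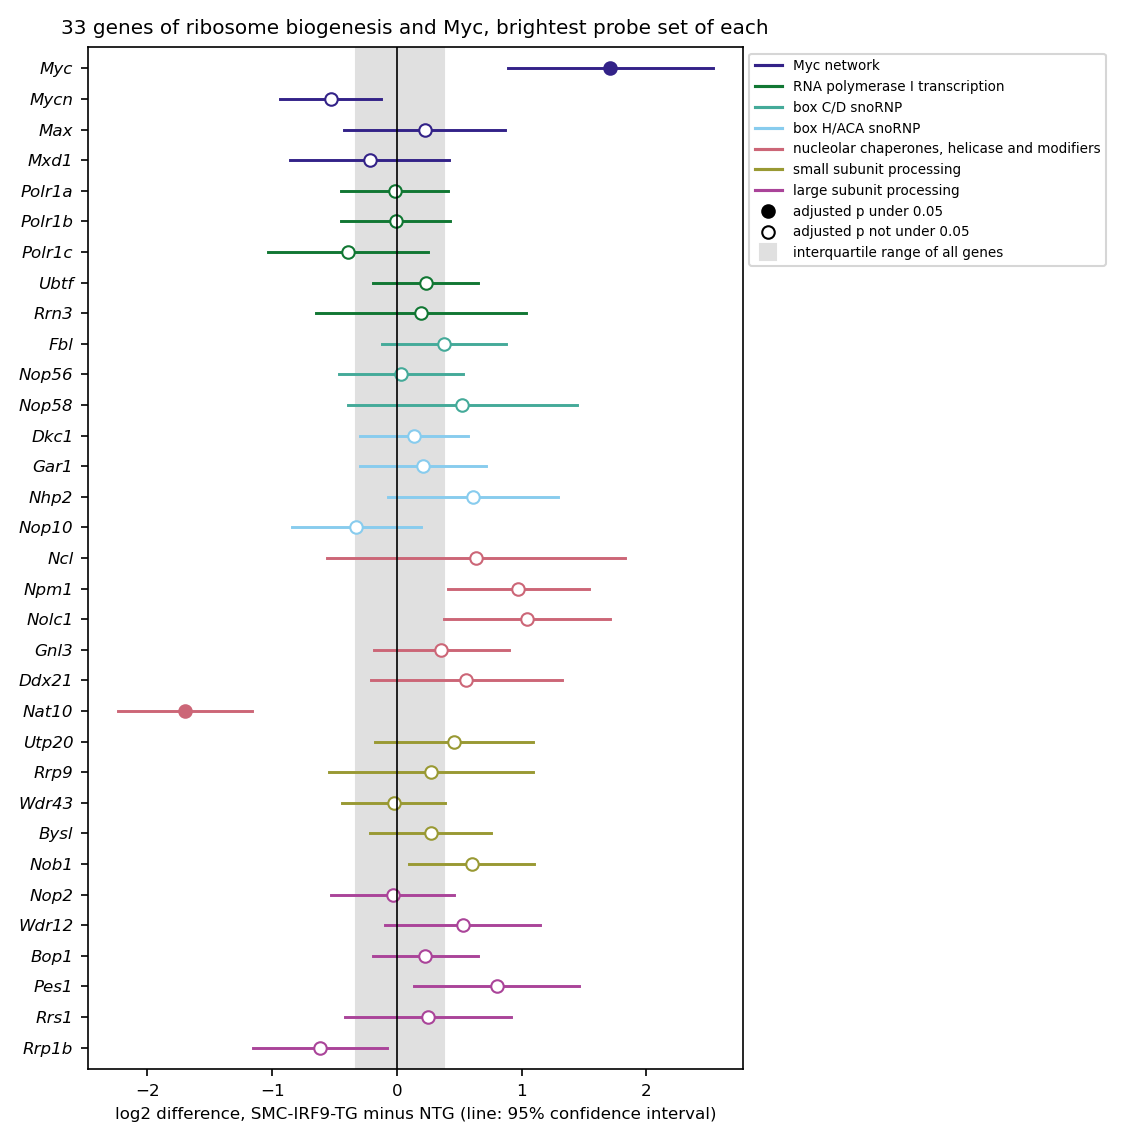
Log2 difference, SMC-IRF9-TG minus NTG (x axis), of the 33 genes by role group (y axis), with 95% confidence intervals from limma (lines) and the interquartile range of all named genes in grey. Myc at 1.71 and Nat10 at -1.70 are the filled points that passed, and the other 31 points lie between -0.62 and 1.04.

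Within the Myc network, Myc was higher and its partner and relatives did not pass. Myc, by its single probe set 1424942_a_at, read 4.87, 3.58 and 4.84 in NTG pools 1 to 3, and in SMC-IRF9-TG pools 1 to 3 it read 5.82, 6.18 and 6.42. Every transgenic pool exceeded every NTG pool, with NTG pool 2, the pool with the greatest 5′ loss, by far the lowest. Myc thus rose 3.27-fold, from 4.43 ± 0.74 (SD, n = 3 pools) to 6.14 ± 0.30, and the difference of 1.71 had a standard error of 0.36 (limma adjusted p = 0.047). By exact permutation its 2-sided p was 0.1, the smallest that 3 pools against 3 allow. The call did not hold in every fit that left out 1 pool. Without NTG pool 2 the difference was 1.28 (adjusted p = 0.0322 from limma). The call was lost without NTG pool 1 (adjusted p = 0.0787) and without transgenic pool 1, 2 or 3 (adjusted p of 0.107, 0.181 and 0.164). Over all probe sets the number called higher also fell there, from 1069 to 514 without NTG pool 1. Without transgenic pools 1, 2 and 3 it was 371, 297 and 414. The Myc difference in the fits that lost the call ran from 1.57 to 1.93. With a block for the NTG pools of high Xist, which leaves NTG pool 3 alone to carry the comparison, it was 1.30 (adjusted p = 0.25).

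Mycn, the Myc relative of embryonic and neural tissue, read 5.48, 5.47 and 5.37 in NTG and 4.86, 4.85 and 5.00 in SMC-IRF9-TG pools by probe set 1425923_at. The pools of each group lay close together and the groups did not overlap, but the difference of -0.53 did not pass (95% confidence interval -0.94 to -0.13, adjusted p = 0.145 from limma). The other probe sets of Mycn, both with NTG means below the lower quartile of their arrays, differed by 0.25 and 0.22. Max, the obligate partner of Myc, read 3.48, 2.93 and 3.83 in NTG and 3.94, 3.27 and 3.70 in SMC-IRF9-TG pools. These ranges overlapped, and the difference of 0.22 did not pass (95% confidence interval -0.42 to 0.87, adjusted p = 0.64 from limma). Mxd1, which competes with Myc for Max, read 4.15, 4.74 and 3.83 in NTG and 4.36, 3.75 and 3.95 in SMC-IRF9-TG pools by its brightest probe set, with overlap (difference -0.22, adjusted p = 0.645 from limma). Its other probe sets differed by -0.09 and -0.58, and in the latter, 1422002_at, the groups did not overlap (adjusted p = 0.177).

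The promoters were read for CACGTG, the E-box that Myc and Max bind, and for GAAA, any 2 bases and GAAA again, the paired core of interferon response elements, on both strands. RefSeq start-site windows (GRCm38.p6, 250 bases before to 50 after the start) were matched for 28 of the 33 genes, with 36 windows. Myc, Npm1, Fbl, Bop1 and Rrs1 had no window and are outside these counts. Those of 4 genes are shown because Nat10 was the called member among the 28, Max and Pes1 hold an E-box beside the start site, and Rrn3 holds 2. Capitals mark CACGTG, and each sequence is written 5′ to 3′ on the strand of its gene.
Nat10, chr2:103761221-103761520, minus strand: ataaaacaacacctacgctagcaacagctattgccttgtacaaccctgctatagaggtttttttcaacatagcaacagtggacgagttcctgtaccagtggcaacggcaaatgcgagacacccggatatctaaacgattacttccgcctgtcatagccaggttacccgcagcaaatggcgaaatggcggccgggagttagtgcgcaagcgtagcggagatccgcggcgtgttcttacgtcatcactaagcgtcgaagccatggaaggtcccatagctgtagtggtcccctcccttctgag
Max, chr12:76962199-76962498, minus strand: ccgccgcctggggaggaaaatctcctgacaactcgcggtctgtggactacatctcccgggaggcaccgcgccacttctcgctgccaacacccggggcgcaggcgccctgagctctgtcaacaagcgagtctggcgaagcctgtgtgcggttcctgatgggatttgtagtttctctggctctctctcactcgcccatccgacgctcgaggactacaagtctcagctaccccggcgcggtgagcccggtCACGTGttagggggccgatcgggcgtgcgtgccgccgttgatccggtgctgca
Pes1, chr11:3963725-3964024, plus strand: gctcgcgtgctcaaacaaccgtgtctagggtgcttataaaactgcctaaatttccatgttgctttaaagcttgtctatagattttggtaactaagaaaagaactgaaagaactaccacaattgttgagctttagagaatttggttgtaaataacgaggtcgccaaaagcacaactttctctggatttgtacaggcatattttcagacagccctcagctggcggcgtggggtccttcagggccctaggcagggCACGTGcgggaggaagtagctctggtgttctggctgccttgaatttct
Rrn3, chr16:13780449-13780748, plus strand: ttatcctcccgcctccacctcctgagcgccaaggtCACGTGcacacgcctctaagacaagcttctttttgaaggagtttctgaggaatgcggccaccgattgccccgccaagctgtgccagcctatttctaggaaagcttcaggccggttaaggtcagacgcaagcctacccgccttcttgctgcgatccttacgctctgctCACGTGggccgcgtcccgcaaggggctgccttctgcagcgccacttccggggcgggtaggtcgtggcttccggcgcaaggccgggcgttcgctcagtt
CACGTG was present in a window of 6 of the 28 genes (Max, Nop2, Pes1, Rrn3, Utp20 and Wdr43), or 21.4%, beside 8.09% of the 27025 genes in the table. Those 27025 genes were not limited to genes on the array or matched to the members by promoter type. In Pes1 the E-box begins at base 3, counting the start site as 1, in Max at -3, and in Rrn3 at -215 and -48. The paired GAAA motif was in no window of the 28 genes, beside 3.99% of all genes in the table, and neither motif is in the window of Nat10. The 6 genes with an E-box differed by a median of 0.21 between the groups and the 22 without by 0.22. A match is a description of the letters and not of binding.

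The proteins that chaperone, modify or unwind ribosomal RNA in the nucleolus included the largest fall of the 33 genes. Nat10, the acetyltransferase that makes N4-acetylcytidine in 18S ribosomal RNA, transfer RNA and messenger RNA, read 6.06, 5.50 and 6.19 in NTG and 4.04, 4.23 and 4.38 in SMC-IRF9-TG pools by probe set 1433692_at. The lowest NTG pool was more than 1 log2 unit above the highest SMC-IRF9-TG pool. The mean fell from 5.91 ± 0.37 (SD, n = 3 pools) in NTG to 4.21 ± 0.17, or 3.25-fold, and the difference of -1.70 had a standard error of 0.24 (limma adjusted p = 0.0101). The second Nat10 probe set, 1447601_x_at, whose suffix marks probes that may match other transcripts, read 3.20, 3.14 and 3.62 in NTG and 3.22, 3.18 and 3.02 in SMC-IRF9-TG pools. It overlapped between the groups (difference -0.18, adjusted p = 0.606 from limma), so that on these arrays the fall rests on 1 probe set. The study lists real-time PCR primers for Nat10 among genes chosen to check its array results, and reports that PCR bore those results out. Its PCR values for Nat10 were not read here. The call of 1433692_at was kept without each NTG pool and without SMC-IRF9-TG pool 3, and was lost without SMC-IRF9-TG pool 1 (adjusted p = 0.0527 from limma) or pool 2 (adjusted p = 0.0585). With the block for high Xist it was -1.97 (adjusted p = 0.0603 from limma).

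Npm1, or nucleophosmin, a histone and ribosome chaperone, was higher by 1 of its 2 probe sets. By the brighter, 1415839_a_at, it read 8.28, 8.40 and 8.94 in NTG and 9.59, 9.74 and 9.21 in SMC-IRF9-TG pools, a gap between groups that did not pass (difference 0.97, adjusted p = 0.0819 from limma). Without NTG pool 3 it was 1.18 and passed (adjusted p = 0.0407), as it did with arrays centred on their medians (adjusted p = 0.0485). By 1432416_a_at it read 6.81, 6.47 and 6.31 in NTG and 8.03, 8.76 and 7.89 in SMC-IRF9-TG pools, and rose by 1.70 with a standard error of 0.27 (limma adjusted p = 0.0174). Both probe sets kept the groups apart, and SMC-IRF9-TG pool 2 was the highest array in both. The call of 1432416_a_at was lost without SMC-IRF9-TG pool 1 (adjusted p = 0.0555) or pool 2 (adjusted p = 0.0646). Genomes carry many processed copies of Npm1, and whether these probes also read such copies is not known here.

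Nolc1, or Nopp140, a chaperone of snoRNPs, is given by pool because its values were seen to lie close to the threshold. It read 4.40, 5.35 and 4.43 in NTG and 5.81, 6.00 and 5.50 in SMC-IRF9-TG pools by 1428869_at, and 3.21, 3.27 and 3.88 against 4.44, 4.46 and 4.17 by 1428870_at. In both the groups did not overlap, and neither difference passed (1.04 with adjusted p = 0.101 and 0.91 with adjusted p = 0.0854 from limma). Without NTG pool 2 the former was 1.36 and passed (adjusted p = 0.024 from limma), and without NTG pool 3 the latter was 1.12 and passed (adjusted p = 0.0332). The dimmest Nolc1 probe set, under the lower quartile in both groups, differed by -0.17. Ncl, or nucleolin, an abundant nucleolar RNA-binding protein, varied widely between pools of 1 genotype. It read 8.08, 6.24 and 6.79 in NTG and 7.64, 8.51 and 6.86 in SMC-IRF9-TG pools (difference 0.63, adjusted p = 0.476 from limma), and its 5 probe sets differed by -0.70 to 1.01. Gnl3, the nucleolar GTPase nucleostemin, differed by 0.36 and Ddx21, an RNA helicase, by 0.56, and neither passed (adjusted p of 0.383 and 0.34).

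**Figure D2:**
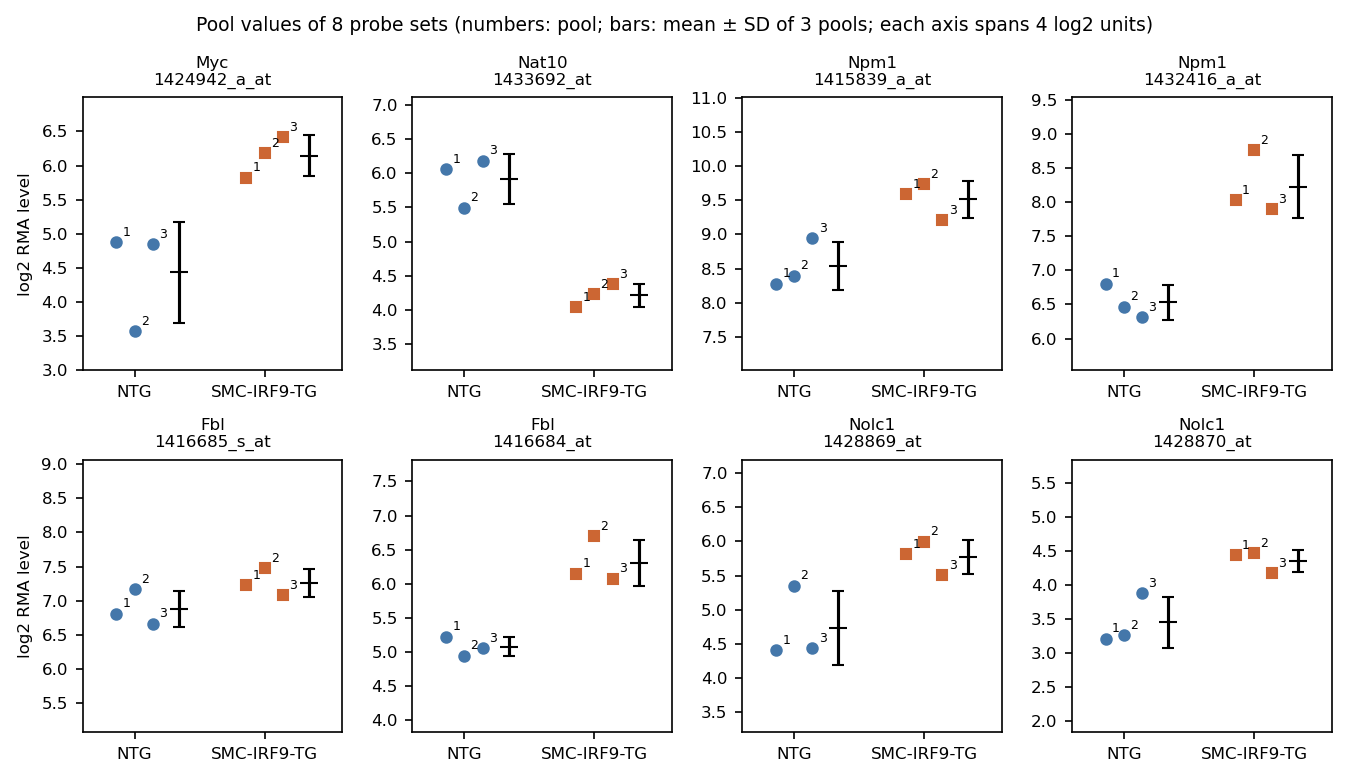
Levels on the log2 scale (y axis) of Myc, Nat10, Npm1, Fbl and Nolc1 by 8 probe sets in each pool of NTG and of SMC-IRF9-TG (x axis), with the mean ± SD of each group as bars. The Nat10 points drop from near 5.91 to near 4.21, the Myc points rise from near 4.43 to near 6.14, and the groups overlap for Fbl 1416685_s_at.

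Of the box C/D snoRNPs, which guide 2′-O-methylation of ribosomal RNA, none of the 3 core proteins passed by its brightest probe set, although all 3 differences were above 0. By these brightest probe sets limma gave 0 of the 3 at an unadjusted p under 0.05. Among all named genes 14.9% were higher and 9.81% lower by that measure. Fbl, or fibrillarin, the methyltransferase of the complex, read 6.81, 7.17 and 6.66 in NTG and 7.23, 7.47 and 7.08 in SMC-IRF9-TG pools by the brighter 1416685_s_at. These overlapped (difference 0.38, adjusted p = 0.321 from limma). By 1416684_at it read 5.22, 4.95 and 5.06 in NTG and 6.15, 6.69 and 6.08 in SMC-IRF9-TG pools, and rose 2.34-fold (difference 1.23, standard error 0.23, adjusted p = 0.03 from limma). There the groups were well apart, and the call was kept only without NTG pool 2 or 3, the highest adjusted p being 0.121 without SMC-IRF9-TG pool 2. Nop58, a scaffold of the complex, read 3.98, 5.24 and 4.90 in NTG and 4.96, 5.97 and 4.76 in SMC-IRF9-TG pools, with overlap (difference 0.53, adjusted p = 0.441 from limma). Nop56, its paralogue, differed by 0.03 and, by its other probe set, by 0.51, and neither passed.

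Of the box H/ACA snoRNPs, which guide pseudouridylation and also stabilize telomerase RNA, none of the 4 proteins passed. By their brightest probe sets limma gave 0 of the 4 at an unadjusted p under 0.05. Of all named genes 14.9% were higher and 9.81% lower at that level. Nhp2, an RNA-binding core protein, had the largest difference. It read 6.43, 7.02 and 6.51 in NTG and 7.01, 7.86 and 6.91 in SMC-IRF9-TG pools by 1416606_s_at, with overlap through NTG pool 2 (difference 0.61, 95% confidence interval -0.07 to 1.29, adjusted p = 0.26 from limma). By 1416605_at it read 4.82, 4.37 and 3.19 in NTG and 5.14, 6.24 and 4.97 in SMC-IRF9-TG pools without overlap. That difference was 1.32 (unadjusted p = 0.0201 and adjusted p = 0.158 from limma). Dkc1, the pseudouridine synthase dyskerin, differed by 0.14, Gar1 by 0.21 and Nop10, the smallest subunit, by -0.32. Nop10 differed by 0.24 by its other probe set, so the sign of its difference depended on the probe set.

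The RNA polymerase I genes did not pass in either direction. By their brightest probe sets limma gave 0 of the 5 at an unadjusted p under 0.05. The shares of all named genes were 14.9% higher and 9.81% lower. Polr1a and Polr1b, the catalytic pair of large subunits, differed by -0.02 and -0.01, with 95% confidence intervals of -0.45 to 0.41 and -0.45 to 0.43. Polr1a 1447598_x_at and 1447597_at, under the lower quartile in both groups, differed by -0.55 and -0.47 (unadjusted p of 0.0182 and 0.0328 from limma). Polr1c, a subunit shared with RNA polymerase III, had the largest difference of the 5 by the brightest probe sets. It read 6.42, 7.23 and 6.69 in NTG and 6.40, 6.76 and 6.01 in SMC-IRF9-TG pools by 1449648_s_at, with overlap (difference -0.39, adjusted p = 0.414 from limma). By 1417041_at it read 5.33, 4.48 and 5.26 in NTG and 5.70, 6.42 and 5.54 in SMC-IRF9-TG pools, the opposite direction, without overlap. That difference was 0.86 (unadjusted p = 0.0247 and adjusted p = 0.17 from limma). Ubtf, the factor that keeps ribosomal DNA open, differed by 0.23 and Rrn3, the initiation factor that recruits the polymerase, by 0.19, and neither passed. By the brightest probe sets, Ubtf was the gene of these 5 whose groups did not overlap, at 6.80 to 7.09 in NTG and 7.20 to 7.25 in SMC-IRF9-TG pools.

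Factors of small subunit processing did not pass, and 4 of the 5 differences were above 0. At an unadjusted p under 0.05 limma gave 1 of the 5 higher by the brightest probe sets, beside 14.9% of all named genes. Nob1, the endonuclease that makes the 3′ end of 18S ribosomal RNA, read 5.29, 5.31 and 5.79 in NTG and 6.18, 6.16 and 5.84 in SMC-IRF9-TG pools. The groups did not overlap but came within 0.1 of each other (difference 0.60, 95% confidence interval 0.10 to 1.10, adjusted p = 0.17 from limma). Utp20 and Rrp9, both of the early small subunit processome, differed by 0.46 and 0.27, and Wdr43 of the same complex by -0.03. By its other probe set Wdr43 differed by 0.43, without overlap between the groups (adjusted p = 0.241 from limma). Bysl, a late assembly factor, differed by 0.27 and, by its other probe set, by -0.60 (adjusted p of 0.449 and 0.183).

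Factors of large subunit processing did not pass either. At an unadjusted p under 0.05 limma gave 1 of the 6 higher and 1 lower by the brightest probe sets. The shares of all named genes were 14.9% and 9.81%. Pes1, Bop1 and Wdr12 form the PeBoW complex, which is needed for maturation of the 5.8S and 28S ribosomal RNAs. By their brightest probe sets they differed by 0.80, 0.23 and 0.53. By other probe sets Pes1 and Bop1 differed by 0.375 and 0.17, and Wdr12, with the opposite sign, by -0.16 and -0.40. Pes1 read 4.41, 5.32 and 4.56 in NTG and 5.50, 5.92 and 5.26 in SMC-IRF9-TG pools, where NTG pool 2 alone overlapped (95% confidence interval 0.14 to 1.46, adjusted p = 0.168 from limma). Rrp1b, a nucleolar protein linked to the large subunit, went the other way at 5.63, 5.58 and 4.93 in NTG and 4.67, 4.87 and 4.75 in SMC-IRF9-TG pools (difference -0.62, adjusted p = 0.18 from limma). These groups did not overlap by the brightest probe set, and the other probe sets of Rrp1b differed by 0.16 and -0.03. Nop2, a ribosomal RNA methyltransferase, differed by -0.04, and Rrs1, which brings the 5S particle to the pre-ribosome, by 0.25. By its other probe set Rrs1 differed by 0.71, with overlap between the groups (adjusted p = 0.224 from limma).

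The direction of a gene could depend on which probe set was read. Of the 22 genes with more than 1 probe set, 10 had differences of both signs and 12 of a single sign. The opposing differences were small in some genes (-0.21 to 0.14 in Dkc1) and wide in others (-0.70 to 1.01 in Ncl). Fbl, Npm1 and Nat10, each with a called probe set, were of a single sign. The share over all genes with several probe sets is not given here. Of the 34 probe sets that were not the brightest of their gene, 2 were called higher, those of Fbl and Npm1, and none lower. Over all 45037 probe sets 2.37% were called higher and 0.373% lower. The widest disagreement was in Ncl (1.72 log2 units between its extremes), followed by Nat10 (1.52) and Polr1c (1.25). Where each probe set lies in its transcript is not known here, so the part that lost 5′ signal has in these disagreements was not tested.

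**Figure D3:**
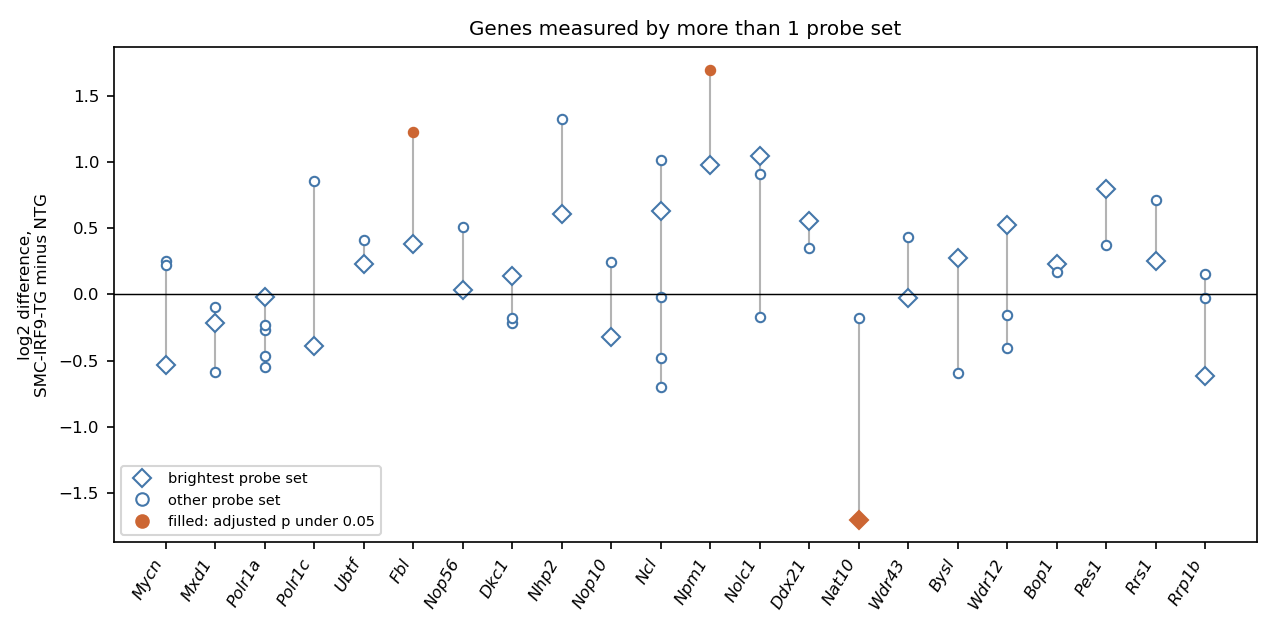
Log2 difference, SMC-IRF9-TG minus NTG (y axis), of each probe set of the 22 genes measured by more than 1 (x axis). Diamonds are the brightest probe set and circles the others, filled where the adjusted p was under 0.05, and 10 of the genes have points on both sides of 0.

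Across pools the 33 genes shifted little together. The median over members of a pool's value minus the gene's mean over the 6 pools was -0.05, 0.06 and -0.08 in NTG pools 1 to 3, and for the SMC-IRF9-TG pools it was 0.16, 0.19 and -0.03. SMC-IRF9-TG pool 3 thus lay below NTG pool 2. Of the 33 genes, 24 and 26 were above their own mean in the transgenic pools 1 and 2, against 15 in pool 3 and 13, 19 and 12 in the NTG pools. The transgenic pools 1 and 2 were also those with low poly-A controls, and with a block for them the median difference was 0.06. That block leaves SMC-IRF9-TG pool 3 alone against NTG, so the value rests on 1 pool. For 9 of the 33 genes the groups did not overlap, 6 higher and 3 lower, while 16.1% of all named genes were apart in each direction. The spread was larger in NTG, with a median SD of 0.36 against 0.22 and a larger SD in NTG for 25 of the 33 genes, and this was not tested.

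**Figure D4:**
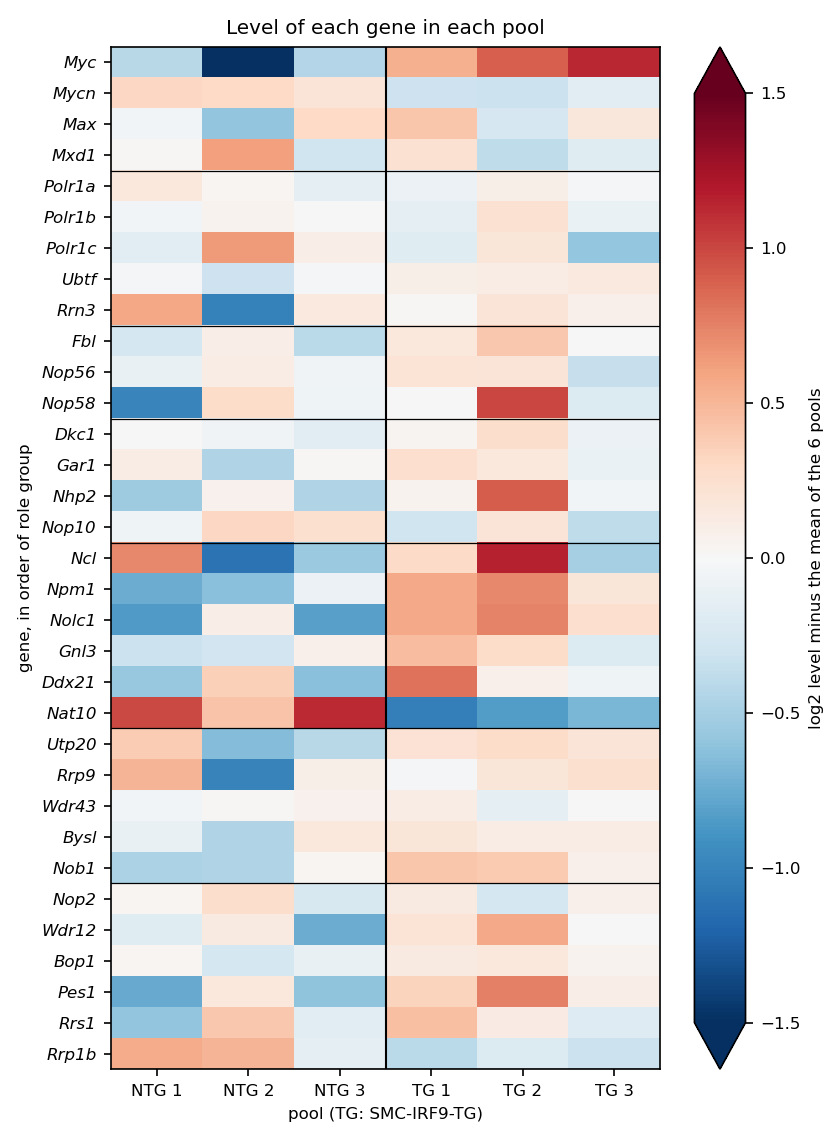
Log2 level of each of the 33 genes minus its mean over the 6 pools (colour), with genes in order of role group (rows, lines between groups) and pools as columns. Nat10 is high in the 3 NTG columns and low in the 3 SMC-IRF9-TG columns, Myc is the reverse, and most other rows are mixed.

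Other genes of the pathway were read from a list. Of 125 further genes of the Myc network and of ribosome assembly, 120 were measured, of which 1 was higher, 0 were lower and 119 did not pass by limma, beside 3.11% and 0.511% of all named genes. At an unadjusted p under 0.05 limma gave 23 higher and 4 lower, beside 14.9% and 9.81% of all named genes. The methods' t-test gave 13 higher and 8 lower, beside 1922 and 1670 of the 18193 named genes. The differences ran from -1.19 to 1.61 with a median of 0.22. Of these, 86 were above 0 and 34 below, beside 46.3% above 0 among all named genes. After quantile normalization the median was 0.02, with 62 above 0 and 58 below, beside 44.6% above 0 among all named genes. Mdn1, the AAA ATPase midasin that removes assembly factors from the pre-large subunit, was the gene that passed. It read 3.74, 3.82 and 3.88 in NTG and 5.26, 5.00 and 4.87 in SMC-IRF9-TG pools. The NTG pools were nearly equal and all SMC-IRF9-TG pools lay above them (difference 1.23, standard error 0.19, adjusted p = 0.0157 from limma). The call was kept without NTG pool 2 or 3 and lost without NTG pool 1 (adjusted p = 0.053) or without SMC-IRF9-TG pool 1, 2 or 3 (0.0918, 0.0781 and 0.0575). In the other 5 lists the gene with the highest mean over the 6 arrays is given, and none of these passed. Mxd4, a relative of Mxd1, differed by -0.04, and Polr1d, a subunit shared by RNA polymerases I and III, by 0.32. Bms1, the GTPase of the small subunit processome, differed by 0.09, Emg1, a methyltransferase of 18S ribosomal RNA, by 0.76, and Naf1, an assembly factor of box H/ACA snoRNPs, by -0.75. Medians by list ran from 0.10 in the 14 RNA polymerase I genes to 0.48 in 15 genes of small subunit maturation and export.

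Other genes on the same arrays moved further. Of 19 measured genes of mitosis, 8 were higher and none lower, with a median difference of 1.22, and Cdk1, the kinase of mitotic entry, rose by 2.91. Of 18 measured macrophage markers 15 were higher and none lower. The median level of that list was 3.61 to 4.27 in NTG and 7.91 to 8.20 in SMC-IRF9-TG pools, and its brightest genes, Lyz1 and Ctss, rose by 4.85 and 4.58. Of that list Itgam and Cd163 lay under the lower quartile of the arrays in both groups. The part of macrophage RNA in the values of Myc, Nat10 and the other members was not tested. Of 8 fibroblast markers 6 were higher, with a median difference of 1.65, and of 9 smooth muscle markers none passed in either direction (median 0.13). At an unadjusted p under 0.05 limma gave none of these 9, beside 14.9% higher and 9.81% lower of all named genes. Of 9 endothelial markers 1 was higher, and no marker of T cells (7 measured), B cells (5), neutrophils (6), adipocytes (5) or skeletal muscle (8) passed. The 6 neutrophil markers differed by -0.40 to 4.37 with a median of 0.84, 4 above 0 and 2 below. S100a8, an abundant gene of neutrophils, read 3.42, 4.07 and 2.56 in NTG and 8.84, 9.99 and 4.34 in SMC-IRF9-TG pools (difference 4.37, adjusted p = 0.103 from limma), and S100a9, its partner, differed by 3.16 (adjusted p = 0.156). S100a8 was thus high in the transgenic pools 1 and 2, where most members lay above their own mean, and its part in the members' values was not tested. Of 6 markers of thyroid and epithelium, tissue that borders the carotid artery, 1 was lower, the epithelial cadherin Cdh1 (difference -1.38, adjusted p = 0.0352 from limma), and 5 of the 6 differences were below 0.

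**Figure D5:**
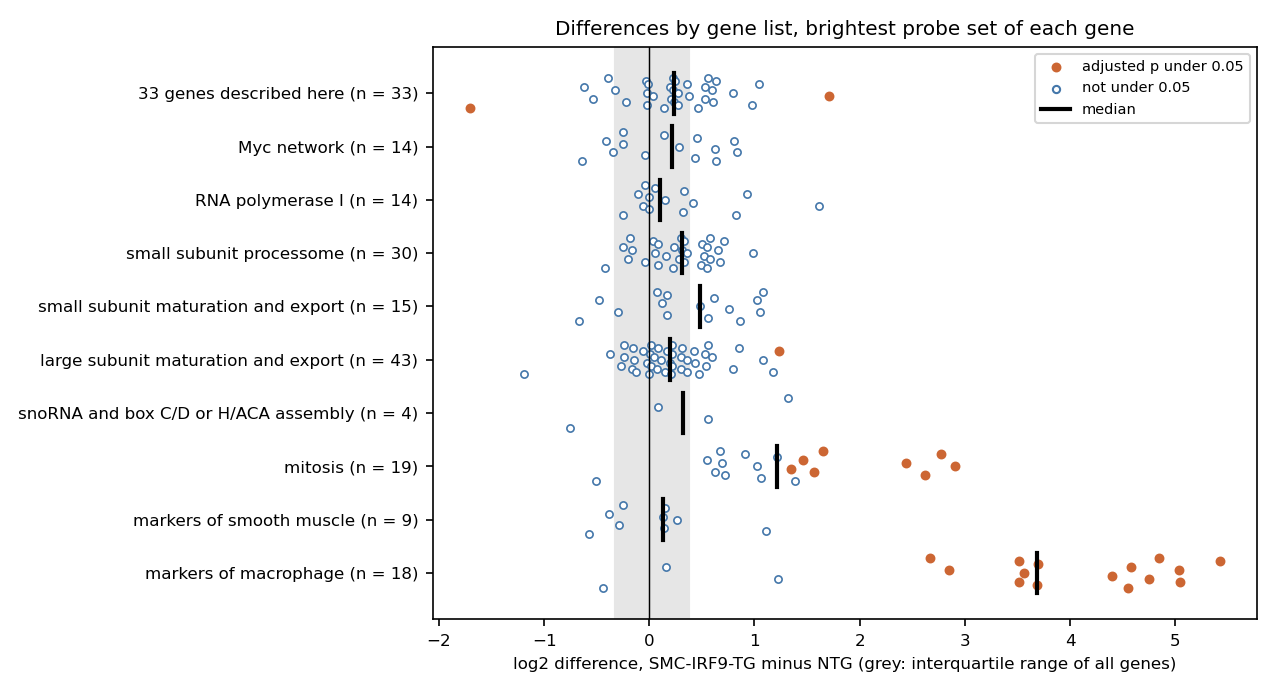
Log2 difference, SMC-IRF9-TG minus NTG (x axis), of each gene by list (y axis), with medians as black lines, called genes filled and the interquartile range of all named genes in grey. The 33 genes (median 0.23) and the 6 lists of further pathway genes lie mostly within 1 log2 unit of 0, and the mitosis (median 1.22) and macrophage lists lie to the right.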

How the data were processed

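The deposited table holds log2 values per probe set, computed by the authors with RMA (background correction, quantile normalization and probe summary). The submitters' processing notes name Affymetrix Expression Console for this, with its version not given in the sources used here. Array medians ran from 3.49 to 3.66 in NTG and from 3.42 to 3.48 in SMC-IRF9-TG pools, without overlap. No further scaling was applied, and background was not checked per probe set. Of 45101 probe sets, 64 controls were left out. The annotation names 1 gene for 34945, several for 932 and none for 9160.

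Groups were compared with limma 3.58.1 in R 4.3.3 (lmFit and eBayes, 2-sided, Benjamini-Hochberg over 45037 probe sets). Values per pool are given for called genes, genes with a called other probe set, the Myc network and the largest difference of each other role group, and further members were named after their values were seen. The 6 arrays limit the precision. The test was checked on simulated data. Members and lists were chosen with earlier results of these data known. Replicate numbers did not pair the pools (correlations of deviations -0.15, 0.00 and 0.03). Tables and figures used Python 3.11.15 with pandas 2.3.3, scipy 1.17.1 and matplotlib 3.10.9. The alternatives were other scalings, filters, priors, weights, blocks and thresholds, the methods' t-test, gene means over probe sets and each pool left out in turn.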

Additional observations from a re-analysis of the deposited data

How the results depend on the processing

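Nat10 stayed lower and Myc, Fbl 1416684_at and Npm1 1432416_a_at stayed higher in all 15 alternatives run for each, but their calls did not all hold. Myc passed in 6 of 15 (adjusted p of 0.0287 to 0.412) and not with quantile normalization (adjusted p = 0.1), Nat10 in 10 (0.00503 to 0.304), Fbl in 6 (0.0236 to 0.621) and Npm1 in 10 (0.0113 to 0.465). Nolc1 1428870_at passed with centred arrays (adjusted p = 0.0472). The signs of Max and Mxd1, neither of them called, turned with a block for high Xist (-0.19 and 0.19), and over the fits without 1 pool they ran from -0.017 to 0.43 and from -0.42 to 0.032.

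The number of members called higher, 1 as reported, was 2 with arrays centred on their medians, with gene means over probe sets and at a threshold of 0.10. It was 0 with quantile normalization, the methods' t-test, the replicate block, the block for low poly-A controls, that for high Xist and a threshold of 0.01, and ran from 0 to 2 without 1 pool. The number called lower, 1, was 0 with the t-test, the blocks for high Xist and poly-A and the threshold of 0.01, and 0 to 1 without 1 pool. The t-test gave 4 of the 33 members higher and 2 lower at an unadjusted p under 0.05, beside 1922 and 1670 of the 18193 named genes. The median difference of the members moved to -0.032 with quantile normalization and 0.058 with the poly-A block, and was 0.14 to 0.28 without 1 pool.

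Of the 120 further pathway genes, 2 were higher with array weights and without dim probe sets and 4 at the threshold of 0.10. None was higher with the t-test, the 3 blocks, the threshold of 0.01 or gene means, and 0 to 4 without 1 pool. The number lower, 0 as reported, was 1 without dim probe sets, with quantile normalization and at 0.10, and 0 without any 1 pool. Of all probe sets, 1069 higher and 168 lower as reported became 547 higher with quantile normalization, 659 and 71 with the replicate block, 174 and 18 with the Xist block and 52 and 3 with the poly-A block. They became 0 and 1 with the t-test, 267 and 24 at 0.01, 2101 and 763 at 0.10 and 111 lower with centred arrays, and ran from 297 to 1268 and from 23 to 583 without 1 pool. The blocks for Xist and poly-A leave 1 pool of a group alone. The cause of these changes was not tested.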
